A study of Mus musculus with 10 samples.

Results

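Articular-like *Grem1*-lineage cells in which *Cd200* RNA was counted were compared with articular-like cells in which none was counted. The cells were chosen by 3 measured values. A cell needed at least 350 genes with a unique molecular identifier (UMI, a tag by which PCR copies of a molecule are counted once). It also needed at least 2.5% of its UMIs in *Clu*, *Cilp* and *1500015O10Rik* together, a share called S here, and an S above its share of *Cnmd*. Of 930 wells in the series, 768 held *Grem1*-lineage cells, 684 of these passed the gene minimum and 337 were articular-like. *Cd200* was counted in 188 of the 337 cells and was at 0 in 149. Because *Cd200* chose the groups, it was removed from the counts before anything else was computed and is not among the results.

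All the cells compared came from *Grem1-TdT* mice of the C57BL/6 strain, in which a tamoxifen-inducible Cre driven by *Grem1* turns on the red fluorescent protein TdTomato, so that cells expressing *Grem1* at the time of tamoxifen, and their descendants, are marked. The mice received tamoxifen chow for 2 weeks from 5 to 6 weeks of age, and both groups share this treatment. Articular cartilage (AC) and growth plate (GP) were excised from the hind limbs and live TdTomato-positive cells were sorted singly into 96-well plates. The study's methods state that AC and GP cells were sorted separately, that cells were assigned to plates at random, and that cells of several samples were combined. Plates 1, 2, 4, 5, 6, 7, 8 and 9 were used, and which tissue and which mice each plate holds is not given in the sources used here. No genotype or treatment separates the groups, which were taken from the same plates by a measured transcript.

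CD200 is a cell surface glycoprotein of the immunoglobulin superfamily. Its receptor is carried mainly by myeloid cells, in which binding dampens activation. In bone and cartilage CD200 is known as one of the surface proteins used to sort mouse skeletal stem cells, together with integrin alpha V. Articular chondrocytes make a matrix of type II collagen and aggrecan, and type X collagen, encoded by *Col10a1*, is the classical product of hypertrophic chondrocytes, the cells that precede mineralisation.

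The articular label was checked against markers. *Gas1*, *Cilp2*, *Abi3bp* and *Creb5* were counted at 3417, 1453, 872 and 415 CPM (counts per 1000000 UMIs) in articular-like cells and at 99.8, 96.8, 52.8 and 20.5 CPM in the 136 *Cnmd*-rich cells, in which *Cnmd* made up at least 2.5% of UMIs and at least as much as S. *Prg4*, the best known marker of the articular surface, lies outside the genes used and was not analysed here. Of 10 articular markers 6 were listed, and of 7 growth plate markers 2. S had a median of 4.77% in articular-like cells and reached 14.5%. The 10 cells just above the limit of 2.5% had between 2.56% and 2.61%, and the 10 cells just below it between 2.36% and 2.46%.

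For *Cd200* itself, 72 of the 188 cells had exactly 1 UMI and 116 had 2 or more, with up to 15 in a cell. A cell at 0 is thus a cell in which no molecule was sampled, which need not lack the RNA. The share of cells with a *Cd200* UMI was 55.8% in articular-like cells (95% exact binomial interval 50.3% to 61.2%, median 1222 UMIs per cell). In the 211 *Grem1*-lineage cells of neither group it was 46.0% (39.1% to 52.9%, median 1691 UMIs), an interval that overlaps that of articular-like cells. It was 27.9% in *Cnmd*-rich cells (20.6% to 36.3%), which were deeper with a median of 2317 UMIs, and 16.9% in hind limb *Lepr*-lineage cells of the same study (11.4% to 23.6%), which had a median of only 505 UMIs over the same genes. At an equal 759 UMIs per cell it was 47.2% in articular-like and 10.4% in *Cnmd*-rich cells. Wells with too few genes, with a median of 501.5 UMIs, had a *Cd200* UMI in 28.6% (19.2% to 39.5%), and how much of the counts is RNA carried over from other wells was not tested. All these intervals cover counting error only.

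Plates differed in how the cells were split. On plates 1, 2 and 4 the share of articular-like cells with *Cd200* was 47.7%, 38.6% and 33.3%, and on plates 5 to 9 it lay between 57.5% and 77.1%. A plate gave 17 to 31 cells above 0 and 8 to 38 cells at 0. The UMIs summed per plate ran from 20427 to 45170 in cells above 0 (median 32578) and from 8584 to 39647 in cells at 0 (median 16623). The same 96 well barcodes recur on every plate by design, so they do not link plates.

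Cells with *Cd200* were deeper, which the split itself favours, since a UMI of *Cd200* is found more easily in a deeper cell. The p-value for depth below is therefore a check on the split and not a separate result. The median number of UMIs per cell, without *Cd200*, lay between 1144 and 1514 (median of 8 plates 1350) in cells above 0 and between 856 and 1157 (median 1010.5) in cells at 0. The groups overlapped by plate 7 at 0 and plate 6 above 0 alone, and within a plate the cells above 0 were higher on 8 of 8 plates. The mean difference was 335.6 UMIs ± 128.1 (SD, n = 8 plates). An exact permutation test over plates, two-sided and made by flipping the sign of each plate's difference, gave p = 0.0078, which 8 plates cannot go below. After each cell had been thinned to 759 UMIs the order turned. Cells above 0 then had 355.9 genes with a UMI and cells at 0 had 382.1, a difference of -26.2 genes ± 8.90 (SD), negative on 8 of 8 plates (p = 0.0078 by the same exact test). Thinned cells with *Cd200* thus spread the same number of UMIs over fewer genes, and the difference ran from -39.5 genes on plate 5 to -13.4 genes on plate 6.

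**Figure D1:**
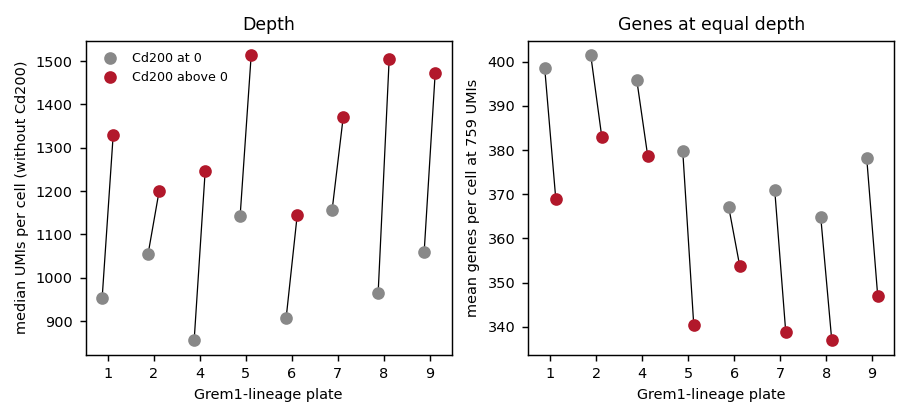
Depth and gene number of articular-like cells on the 8 plates. Left, median UMIs per cell without Cd200; right, mean genes with a UMI per cell after thinning to 759 UMIs; the axes do not start at 0. Each line joins the 2 groups of a plate. Cells with Cd200 (red) lie above cells at 0 (grey) on the left and below them on the right, on all 8 plates.

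The main question was which other transcripts go with *Cd200*. Of 337 genes tested, 14 passed an adjusted p of 0.05 (4.15%), 11 of them higher with *Cd200* (3.26% of the genes tested) and 3 lower (0.89%). With library sizes over all genes and no TMM scaling, 9 genes were higher and 5 lower. The higher genes were *Chad*, *Cst3*, *Btg2*, *Col10a1*, *Enpp2*, *Fxyd3*, *Actb*, *C4b*, *Cox4i2*, *Cytl1* and *Fn1*, and the lower genes were *Fmod*, *Fam19a1* and *Gja1*. The test was edgeR's quasi-likelihood test on UMIs summed per plate and group, with the plate as block and Benjamini-Hochberg adjustment over the 337 genes. In it, 7 plates gave a pair, since plate 5 had only 8 cells at 0, and the CPM below come from all 8 plates. The median log2 fold change of the genes tested was 0.00, and 47 genes had an unadjusted p under 0.05. DESeq2 called 7 genes, all of them among the 14 and all higher: *Chad*, *Cst3*, *Btg2*, *Col10a1*, *Enpp2*, *Actb* and *Cytl1*. The plate groups overlapped for every gene tested (0% of 337 were separate), so the differences below are seen within plates.

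*Col10a1* had the largest fold change of the higher genes. Its level ran from 1887 to 12835 CPM (median of plates 7734) in cells with *Cd200* and from 446 to 8860 CPM (median 1338) in cells at 0. The summed level was higher with *Cd200* on 8 of 8 plates, and the 2 ranges overlapped widely. Single cells followed this less evenly. The share of cells with a *Col10a1* UMI was higher with *Cd200* on 7 of 8 plates and lower on plate 8 (69.6% against 75%). The median *Col10a1* share per cell was higher on 5 of 8 plates, 0 in both groups on plate 4, and lower on plate 6 (0.230% against 0.401% of UMIs) and plate 7 (0.148% against 0.187%). On plate 6 the 2 values were close, 10925 against 8860 CPM, while on plate 5 they were 12835 and 1598 CPM. The log2 fold change was 1.56 ± 0.24 (SE, adjusted p = 6.19e-05), a 2.95-fold difference. Plates 1, 2 and 4, with 1887 to 4097 CPM, were low even in cells with *Cd200*, and the log2 fold change within these 3 plates was 2.16 (adjusted p = 0.00277), against 1.20 (adjusted p = 0.122) within plates 5 to 9. The difference between the plate sets was not tested. *Col10a1* (GRCm38, chr10:34389981-34397085, strand +) shares exonic bases with *Nt5dc1* on the other strand. Whether the authors' counting used strand is not given in the sources used here, and reads of the 2 genes may not have been told apart.

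*Chad*, *Cst3* and *Btg2* were the other genes with the smallest p. *Chad* encodes chondroadherin, a leucine-rich cartilage protein that binds collagen and cells. It ran from 26058 to 54721 CPM (median 39172) with *Cd200* and from 15295 to 27175 CPM (median 17480) at 0, with overlap between the lowest plate above 0 and the highest at 0 alone. Its log2 fold change was 0.95 ± 0.11 (SE, adjusted p = 3.13e-06). *Cst3*, which encodes the secreted cysteine protease inhibitor cystatin C, ran from 27998 to 54625 CPM (median 41691) with *Cd200* and from 17772 to 29427 CPM (median 23824) without. The plates that were low with *Cd200* were 2 and 4, the only ones below the highest value at 0. The log2 fold change of *Cst3* was 0.79 ± 0.10 (SE, adjusted p = 1.34e-05). *Btg2*, an antiproliferative gene induced rapidly by stress and p53, ran from 2629 to 8034 CPM (median 6613) with *Cd200* and from 1426 to 4437 CPM (median 2996) at 0. Plate 1 was the low plate with *Cd200*, and the log2 fold change of *Btg2* was 1.14 ± 0.17 (SE, adjusted p = 6.19e-05).

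The sequence before the transcription start is shown for *Col10a1*, *Chad* and *Btg2*, which were higher in the same group of cells. *Gja1* is shown as a gene that was lower. The set of RefSeq starts used here (GRCm38.p6) held 9 of the 14 genes under the symbols searched, with *Fam19a1* listed as *Tafa1*. The 250 bases before the start are printed 5′ to 3′ on the gene's strand. Capitals mark matches to 6 motifs searched on both strands. The letters searched for RUNX factors, which include the master regulator of hypertrophy, were TGTGGT. Those for AP-1, the dimer of Fos and Jun proteins, were TGANTCA, where N is any base. The cyclic AMP response element (CRE) was searched as TGACGTCA. The letters for forkhead factors (FOX), among them the FoxO proteins, were GTAAACA. Those for SOX factors, such as the cartilage regulator Sox9, were AACAAT. The TATA box, which positions the start of transcription at many genes, was searched as TATAAA. The printed matches do not overlap each other. The windows of *Cst3*, *Cytl1*, *Fmod* and *Fxyd3*, which held no match, are not printed, nor is that of *Tafa1*, which held a match. The windows are chr10:34389731-34389980, strand + for *Col10a1*, chr11:94564797-94565046, strand + for *Chad*, chr1:134079156-134079405, strand - for *Btg2* and chr10:56377050-56377299, strand + for *Gja1*.
*Col10a1*: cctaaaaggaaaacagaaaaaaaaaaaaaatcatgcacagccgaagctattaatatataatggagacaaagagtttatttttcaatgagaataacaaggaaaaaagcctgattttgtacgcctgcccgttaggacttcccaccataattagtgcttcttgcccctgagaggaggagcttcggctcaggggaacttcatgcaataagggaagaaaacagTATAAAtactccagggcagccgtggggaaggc
*Chad*: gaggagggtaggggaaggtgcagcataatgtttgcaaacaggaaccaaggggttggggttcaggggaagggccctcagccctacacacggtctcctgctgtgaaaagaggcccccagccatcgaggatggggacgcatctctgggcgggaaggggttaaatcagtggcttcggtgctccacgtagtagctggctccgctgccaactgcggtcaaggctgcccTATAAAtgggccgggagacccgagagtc
*Btg2*: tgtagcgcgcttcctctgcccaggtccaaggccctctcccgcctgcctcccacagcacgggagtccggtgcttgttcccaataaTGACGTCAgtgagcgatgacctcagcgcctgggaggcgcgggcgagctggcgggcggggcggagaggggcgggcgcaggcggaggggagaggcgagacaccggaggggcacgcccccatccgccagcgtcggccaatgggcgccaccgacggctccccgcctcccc
*Gja1*: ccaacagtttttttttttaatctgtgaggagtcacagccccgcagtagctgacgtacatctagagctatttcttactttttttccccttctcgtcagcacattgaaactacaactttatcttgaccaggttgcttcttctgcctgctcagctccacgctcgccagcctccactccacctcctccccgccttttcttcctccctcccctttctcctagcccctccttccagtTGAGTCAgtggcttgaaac
*Col10a1* and *Chad* each had the TATA letters, which 12.4% of all 32851 windows hold. *Btg2* had the CRE letters (1.55% of all windows), and *Gja1* and *Tafa1* had the AP-1 letters (6.75%). RUNX, FOX and SOX letters were in none of the 9 windows, against 14.0%, 3.17% and 9.42% of all windows. A match is only a match of letters, and factor binding was not measured.

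Among secreted and surface proteins, *Enpp2*, *C4b* and *Cytl1* were higher. *Enpp2* encodes autotaxin, the enzyme that makes lysophosphatidic acid. It ran from 1652 to 3550 CPM (median 2532) with *Cd200* and from 718 to 2117 CPM (median 1291) at 0, higher on 8 of 8 plates with some overlap (log2 fold change 0.92 ± 0.19 SE, adjusted p = 0.00386). *C4b*, complement component 4, ran from 239 to 1568 CPM (median 553) and from 0 to 609 CPM (median 200), and in cells at 0 of plates 5 and 6 it was not counted at all. It was higher on 8 of 8 plates, on plate 2 by 3.19 CPM alone (log2 fold change 1.40 ± 0.32 SE, adjusted p = 0.00881), and rests on 170 and 38 UMIs. *C4b* has the near-identical copy *C4a*, so its counts are uncertain. *Cytl1*, a small cartilage-secreted protein, is the most abundant transcript of these cells at 14.9% of UMIs. It ran from 114939 to 205933 CPM (median 173626) with *Cd200* and from 95486 to 188399 CPM (median 124036) at 0, higher on 7 of 8 plates and slightly lower on plate 8 (log2 fold change 0.35 ± 0.09 SE, adjusted p = 0.0205). *Cytl1* was counted in all of the 84 wells with too few genes too.

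*Fxyd3*, a regulator of the sodium pump, *Cox4i2*, an isoform of a cytochrome oxidase subunit, *Actb* and *Fn1* complete the higher genes. *Fxyd3* ran from 218 to 964 CPM (median 647) with *Cd200* and from 79.8 to 470 CPM (median 249) at 0, on 149 and 31 UMIs (log2 fold change 1.31 ± 0.29 SE, adjusted p = 0.00881). Exons of *Lgi4* overlap it on the other strand, and it was higher on 8 of 8 plates. *Cox4i2* ran from 578 to 1400 CPM (median 706) against 267 to 685 CPM (median 433), higher on 8 of 8 plates with plate 1 the highest (log2 fold change 0.94 ± 0.23 SE, adjusted p = 0.0179). *Actb*, which encodes beta-actin, ran from 6146 to 41213 CPM (median 23877) with *Cd200* and from 4190 to 24253 CPM (median 15934) at 0. Plates 1, 2 and 4 lay between 4190 and 8928 CPM over both groups and plates 5 to 9 between 14953 and 41213 CPM, a larger gap than that between the groups. Within plates *Actb* was higher on 8 of 8 (log2 fold change 0.51 ± 0.12 SE, adjusted p = 0.00881), and it has pseudogene copies. *Fn1*, fibronectin, ran from 2458 to 8036 CPM (median 5702) against 1308 to 6979 CPM (median 3926), higher on 7 of 8 plates and lower on plate 6 (log2 fold change 0.62 ± 0.18 SE, adjusted p = 0.0393). *Fn1* and *Enpp2* likewise share exonic bases with a gene on the other strand, *Apol7d* and *Gm26684*.

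*Fmod*, *Gja1* and *Fam19a1* were lower with *Cd200*. *Fmod* encodes fibromodulin, a small proteoglycan that binds collagen fibrils. It ran from 1249 to 4097 CPM (median 2322) with *Cd200* and from 2039 to 7667 CPM (median 4537) at 0, lower on 7 of 8 plates, with plate 6 the exception (log2 fold change -0.90 ± 0.23 SE, adjusted p = 0.0216). *Gja1* encodes connexin 43, the main gap junction protein of skeletal cells. It ran from 96.4 to 558 CPM (median 226) with *Cd200* and from 323 to 971 CPM (median 515) at 0, lower on 7 of 8 plates and again higher on plate 6 (log2 fold change -1.07 ± 0.29 SE, adjusted p = 0.0250, 70 and 92 UMIs). *Fam19a1*, a small secreted protein, was named after its values were seen, since it was lower on 6 of 8 plates and the naming rule asks for 7. It ran from 0 to 710 CPM (median 217) with *Cd200* and from 78.4 to 2010 CPM (median 448) at 0 (log2 fold change -1.33 ± 0.35 SE, adjusted p = 0.0245, 82 and 87 UMIs). Plate 7 at 0, with 2010 CPM, stood far above the other plates.

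**Figure D2:**
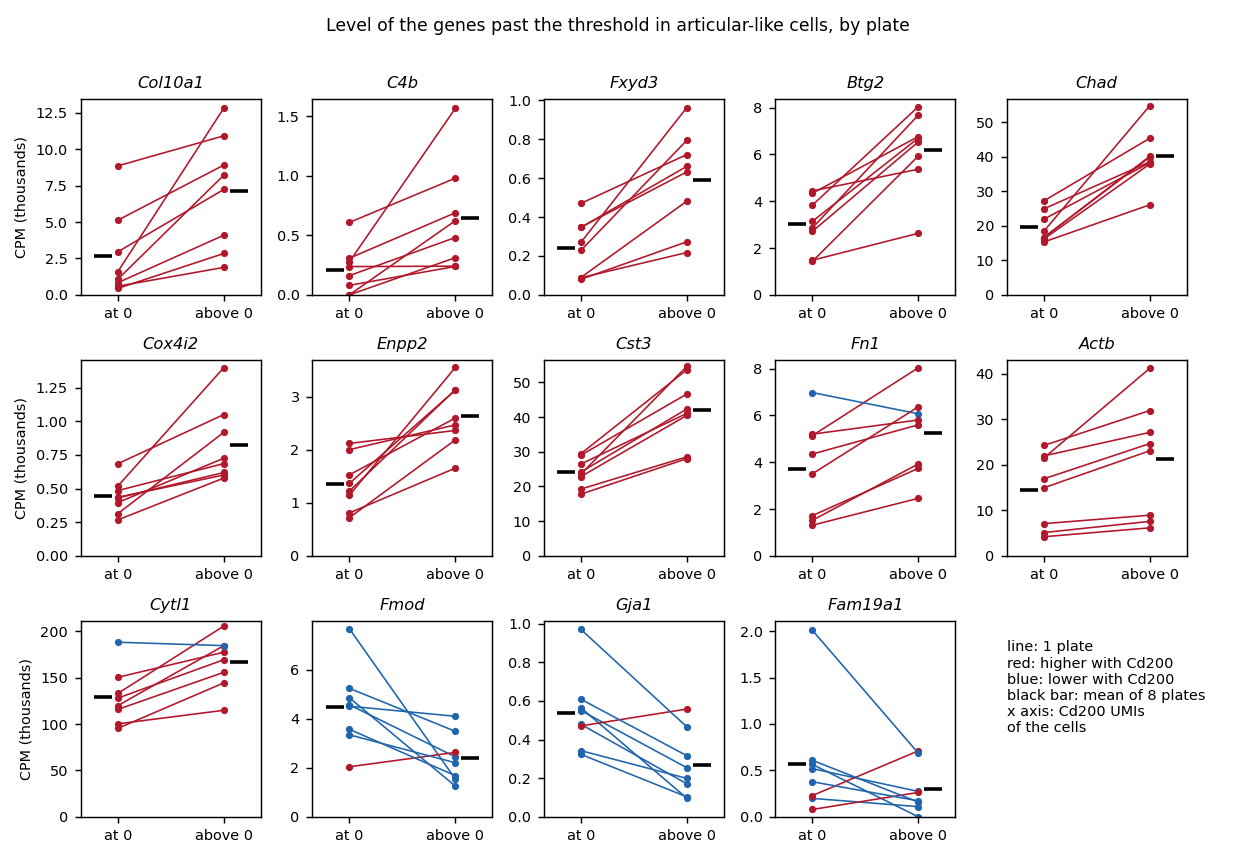
Level of the 14 genes in articular-like cells, in TMM-normalised CPM divided by 1000, for cells with Cd200 at 0 and above 0. Each line is 1 plate and the black bars are means of 8 plates. Lines of the first 9 genes named in the text (Chad to Cox4i2) rise on all 8 plates, while those of Cytl1, Fn1, Fmod and Gja1 have 1 plate, and Fam19a1 2 plates, that go the other way.

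The calls did not all depend equally on single plates. *Chad*, *Cst3*, *Btg2*, *Col10a1*, *Enpp2* and *Actb* passed with each of the 8 plates left out, and *Fxyd3* in the 6 of these fits that tested it. *Cox4i2* did not pass without plate 1 (log2 fold change 0.80), and *C4b* not without plate 7 (1.17). *Fmod* did not pass without plate 2 (-0.65) or plate 7 (-0.72), nor *Fam19a1* without plate 1 (-1.43) or plate 2 (-1.07). *Cytl1* and *Gja1* did not pass without plates 1, 2, 4, 7 or 9, where their log2 fold changes ran from 0.30 to 0.37 and from -1.08 to -0.90. *Fn1* did not pass without plates 1, 2, 4, 5 or 9 (0.49 to 0.61). Plate 5 gave no pair, so the fit without it kept all 7 pairs and does not measure dependence on that plate's own difference. The count of genes that passed fell to 9 without plate 1 and without plate 7. *C4b* was tested in 5 of the 8 fits and *Fam19a1* in 6. In each fit that tested it, a gene had the direction it has with all plates.

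Depth was examined separately, since a UMI of *Cd200* is found more easily in a deeper cell. Each cell was thinned to 759 UMIs with its group kept, which left 183 cells above 0 and 120 at 0. *Chad*, *Cst3*, *Btg2*, *Col10a1*, *Enpp2*, *Actb* and *Cytl1* passed in this fit, 7 of the 9 called genes it tested, and they also passed in each of 10 draws of the thinning. Over the draws the log2 fold change of *Chad* lay between 0.84 and 0.96 and that of *Col10a1* between 1.43 and 1.55. *Fmod* was between -0.99 and -0.73 and passed in 6 draws, and *Fn1* was between 0.40 and 0.64 and passed in 2. When *Cd200* was counted again in the thinned cells, 40 cells moved to the group at 0 and the number of genes past the threshold ranged from 0 to 10 over the draws. *Chad* and *Cst3* passed in 9 of 10 of these draws, *Col10a1* in 8 and *Btg2* in 6. *Enpp2* passed in 4 of them (log2 fold change 0.15 to 0.99), *Fmod* and *Fn1* in 3, and *Actb* and *Cytl1* in 2.

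Next, 86 pairs of cells of the same plate whose depths differed by at most 10% were compared (median 1228 UMIs with *Cd200* and 1205.5 at 0). Of 9 called genes tested, 5 passed: *Chad* (log2 fold change 0.93), *Cst3* (0.76), *Btg2* (0.84), *Col10a1* (1.19) and *Enpp2* (0.95). *Actb* was at 0.18 (adjusted p = 0.733), *Cytl1* at 0.30, *Fn1* at 0.42 and *Fmod* at -0.70. These 4 genes did not pass. In the cells above the median depth of their plate, where 4 plates gave a pair, *Col10a1* (2.44), *Btg2* (1.57) and *Fn1* (1.24) passed, whereas *Chad* (0.73, adjusted p = 0.208), *Cst3* (0.66, adjusted p = 0.384) and *Enpp2* (0.79, adjusted p = 0.488) kept their direction and did not.

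**Figure D3:**
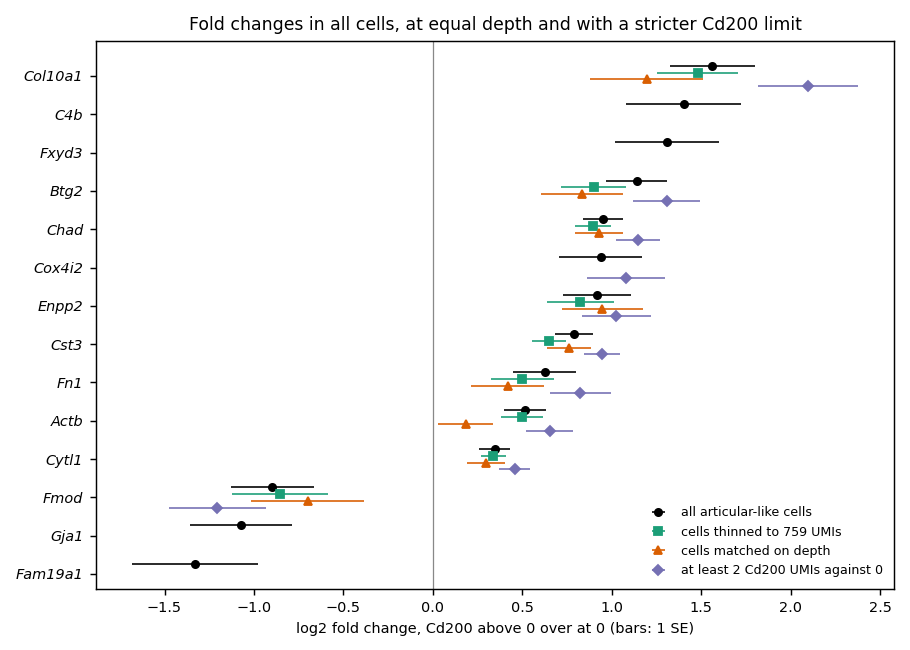
Log2 fold change of Cd200 above 0 over at 0 (bars, 1 SE) for the 14 genes in all articular-like cells, in cells thinned to 759 UMIs, in cells of the same plate matched on depth, and with at least 2 Cd200 UMIs required. A symbol is missing where the gene had too few UMIs to be tested. Chad, Btg2, Cst3, Enpp2 and Col10a1 stay to the right of 0.5 in every fit shown, whereas Actb moves to 0.18 in matched cells.

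Articular-like cells at 0 were then split at the median depth of their own plate, which gave plate medians of 703 to 974 UMIs and of 1128 to 1448 UMIs. Of 89 genes tested, 1 passed (1.12%), and this was *Chad*, with a log2 fold change of 1.21 ± 0.22 (SE, adjusted p = 0.00388) in the deeper cells. *Chad* thus also moved with depth in cells with no *Cd200* counted, while its log2 fold change for *Cd200* at matched depth was 0.93. What part depth has in the *Chad* difference was not tested further. The other 9 genes of the smallest p did not pass: *Comp* (0.83), *Btg1* (-0.83), *Cytl1* (0.59), *Fth1* (-0.50), *Gm26825* (-0.54), *Elp6* (0.85), *Eif5* (-0.65), *Errfi1* (-0.61) and *Cdkn1a* (-0.83). *Comp*, which encodes a cartilage matrix protein, passed by DESeq2. *Enpp2* was at 0.53 ± 0.30 (SE), *Cst3* at 0.14 ± 0.22, *Btg2* at -0.35 ± 0.34 and *Col10a1* at -0.53 ± 0.48. The values of *Btg2* and *Col10a1* had the sign opposite to that of the *Cd200* contrast and did not pass.

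The levels were also set against the number of *Cd200* UMIs, as a description. The cells at 0, with 1 UMI and with 2 or more numbered 149, 72 and 116, with median depths of 981, 1208 and 1422 UMIs. The mean of 8 plates for *Col10a1*, without TMM, was 2720 CPM ± 2964 (SD) at 0, 2700 CPM ± 1773 at 1 UMI and 8545 CPM ± 4743 at 2 or more, where it was above the cells at 0 on 8 of 8 plates. Cells with a single *Cd200* UMI were above cells at 0 for *Col10a1* on 5 of 8 plates, and this difference was not tested. *Chad* was at 20299, 34537 and 40715 CPM, with cells of 1 UMI already above cells at 0 on 8 of 8 plates. *Btg2* was at 3110, 4469 and 6862 CPM and *Cst3* at 24937, 30745 and 43848 CPM, and both were higher at 2 or more than at 1 on 8 of 8 plates. *Fmod* was at 4746, 3934 and 1877 CPM, and *C4b* was highest at 1 UMI, with 730 CPM against 491 CPM at 2 or more.

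**Figure D4:**
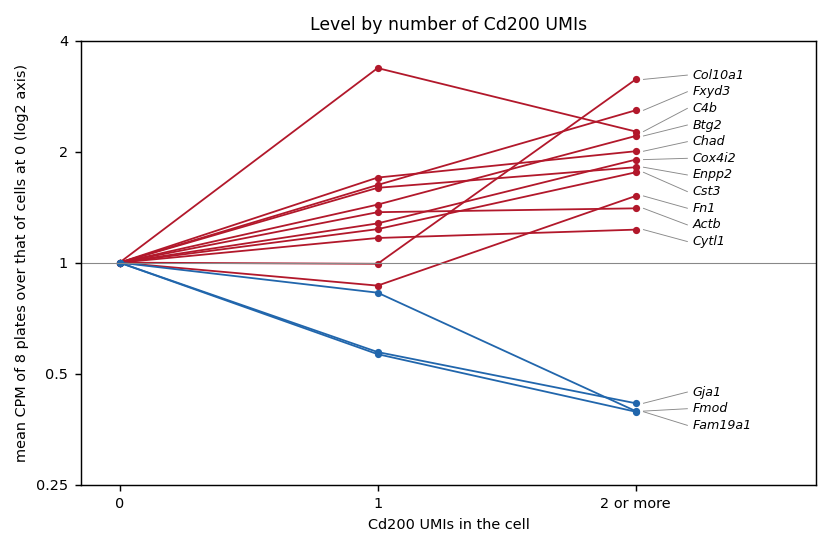
Mean CPM of 8 plates in articular-like cells with 0, 1 and 2 or more Cd200 UMIs, divided by the mean at 0 (log2 axis). Red lines are genes that were higher with Cd200 and blue lines genes that were lower. Col10a1 is at 0.99 of the level at 0 with 1 UMI and at 3.14 times it with 2 or more.

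With at least 2 *Cd200* UMIs required, 15 of 204 genes passed, and 10 of them were the called genes tested there. *Col10a1* was then at a log2 fold change of 2.10, *Chad* at 1.15 and *Fmod* at -1.20. The 5 genes added were *Cd14* (1.26), the co-receptor for bacterial lipopolysaccharide, *Egr1* (0.56), an immediate early transcription factor, *3110079O15Rik* (0.47), *Col6a2* (-1.05), a chain of type VI collagen, and *Crip1* (-0.78). These 5 were named after this fit had been seen.

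Genes were also grouped by function, and for each group the count that passed and the median are given, beside the median of 0.00 over all genes tested. Of the cartilage matrix genes, 15 were tested, 2 were higher (*Chad*, *Cytl1*), 1 was lower (*Fmod*), and the median log2 fold change was -0.08. *Col2a1*, the chain of type II collagen, had 13306 CPM ± 4141 (SD) with *Cd200* and 14050 CPM ± 4065 at 0 (log2 fold change -0.11 ± 0.12 SE, adjusted p = 0.794). *Acan*, aggrecan, was at 0.36 ± 0.17, *Dcn*, decorin, at 0.30 ± 0.14 and *Comp* at -0.08 ± 0.16, and none of these passed. *Col11a1* was at -0.52 ± 0.17 (SE, adjusted p = 0.116), lower on 7 of 8 plates, and *Bgn*, biglycan, at -0.48 ± 0.20 (adjusted p = 0.292).

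Type I and VI collagens, of which 4 chains were tested, had a median of -0.36 and none passed. *Col6a2* was lower on 8 of 8 plates at -0.70 ± 0.22 (SE, adjusted p = 0.0888). Of 3 hypertrophy genes tested, *Col10a1* was higher, and *Enpp1*, the enzyme that makes pyrophosphate, and *Ank*, its exporter, were at -0.30 ± 0.22 and -0.53 ± 0.26 without passing, so the median was -0.30. The other hypertrophy genes of the list were not among the genes used or were too low.

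Of 6 articular genes tested, *Fn1* was higher and the median was -0.25. *Abi3bp*, *Cilp2*, *Gas1* and *Creb5* were at -0.32, -0.25, -0.24 and -0.38 and did not pass. Summed over the 6 listed articular markers (*Creb5*, *Abi3bp*, *Erg*, *Gas1*, *Dkk3* and *Cilp2*), the share of UMIs was 0.448% to 0.720% with *Cd200* and 0.631% to 0.952% at 0, lower with *Cd200* on 7 of 8 plates. The 2 growth plate markers *Cnmd* and *Epyc* had a summed share of 0.252% to 0.623% and 0.302% to 0.738%, higher with *Cd200* on 4 of 8 plates. *Cnmd* took part in choosing the cells.

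Immediate early genes had the highest median of the lists with at least 5 genes tested, 0.26 over 10 genes, and 1 of the 10, *Btg2*, passed. *Egr1* was higher on 8 of 8 plates at 0.41 ± 0.15 (SE, adjusted p = 0.161), *Gadd45b*, a stress-induced gene, was at 0.88 ± 0.29 (adjusted p = 0.116), and *Fos* was at 0.21 ± 0.16. Of the 10 genes, 8 (*Btg2* among them) had a log2 fold change above 0, as had 172 (51.0%) of all 337 genes tested. Whether the list differs from that share was not tested. Not all were higher by number of *Cd200* UMIs (0, 1 and 2 or more, without TMM). *Dusp1* was at 6135, 4908 and 5880 CPM, with 2 or more UMIs above the cells at 0 on 3 of 8 plates. *Atf3* was at 942, 652 and 704 CPM, above them on 2 of 8 plates. Of 19 genes of ATP synthase and cytochrome oxidase, *Cox4i2* passed and the median was -0.15. The tested genes of heat shock (2 genes), secretion (4), glycolysis and hypoxia (3), tetraspanins (3) and immune surface proteins (3) had medians of -0.03, -0.25, 0.03, -0.15 and 0.09, with none past the threshold. *C4b* was the 1 complement gene tested.

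Among pathway genes, few had enough UMIs. *Fgfr1*, a receptor for fibroblast growth factors, was at 0.42 ± 0.23, *Bmp2*, a bone morphogenetic protein, at 0.46 ± 0.31, *Fzd9*, a Wnt receptor, at 0.17 ± 0.33 and *Cdon*, a Hedgehog co-receptor, at -0.38 ± 0.33 (all SE). *Foxo1* and *Foxo3*, transcription factors of stress resistance, were at 0.25 ± 0.33 and 0.08 ± 0.28. None of these 6 genes passed. No gene of the lists for the cell cycle or the surface of skeletal stem cells was tested.

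Markers of other cell types were low. The 4 listed osteoblast markers had a summed share of 0% to 0.258% with *Cd200* and 0.00757% to 0.289% at 0, higher with *Cd200* on 2 of 8 plates, with *Col1a1* at 500 and 335 CPM and *Bglap* at 372 and 272 CPM over all cells. *Elane* and *Cd74*, the blood cell markers listed, held 14 and 9 UMIs in the cells above 0 and 3 and 6 UMIs in the cells at 0, with a summed share of at most 0.0265% in either group. *Adipoq* of the marrow stroma and *Emcn* of the endothelium were at 0, *Cxcl12* had 9 and 2 UMIs, and *Cdh5* had 1 UMI. What part such cells may have in any result was not tested.

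*Col10a1* and *Cd200* were also looked at together in single cells, as a description. Above the median *Col10a1* share of articular-like cells, which was 0.0833% of UMIs, 66.7% of 168 cells had *Cd200*, and at or below it 45.0% of 169. This pooled difference of 21.7 percentage points includes the difference between plates, since plates 1, 2 and 4 were low in both. Within plates the difference averaged 11.2 percentage points ± 11.3 (SD, n = 8 plates), from -1.45 on plate 8 to 28.6 on plate 5, and was positive on 7 of 8 plates. With the cells split in this way, *Btg2* passed in the cells low in *Col10a1* (log2 fold change 1.46, adjusted p = 0.0011), where *Chad* and *Cst3* were at 1.14 and 0.61 without passing. In the cells high in *Col10a1*, *Chad* (1.29), *Cst3* (0.99) and *Fmod* (-2.10) were among the 7 genes that passed. *Col10a1* itself (1.37) was also among the 7, but its share had chosen these cells, so its value there is only a description. These fits held 5 and 6 pairs of plate sums.

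Lastly, it was tested whether the *Cd200* contrast in articular-like cells differs from that in *Cnmd*-rich cells. In the *Cnmd*-rich cells, 4 plates gave a sum of at least 5 cells with *Cd200* (29 cells) and 8 plates a sum at 0 (98 cells). The interaction was past the threshold for 0 of 596 genes (0%) by edgeR's quasi-likelihood test, with 64 genes at an unadjusted p under 0.05, while DESeq2 gave 4 genes: *Capza2*, *Col10a1*, *Col11a1* and *Fn1*. The 14 differences are thus not shown to be particular to articular-like cells by the main test.

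By edgeR the 4 smallest adjusted p-values were equal at 0.0559. They belonged to *Col10a1*, with a log2 fold change of 1.65 in articular-like and -0.67 ± 0.51 (SE) in *Cnmd*-rich cells, to *Fn1* (0.65 and -0.70 ± 0.27), to *Capza2* (0.42 and 3.74 ± 0.57), an actin capping subunit, and to *Arpc5l* (1.47 and -1.02 ± 0.50), an Arp2/3 subunit. The next by p were *Col11a1*, with a difference of -0.92 ± 0.24 (SE, adjusted p = 0.0865), *Cdkn1c* (-2.19), *Gm28555* (1.30), *App* (1.90), *Btg2* (1.16) and *Gm13408* (1.31), all above the threshold. *Chad* was at 0.61 ± 0.20 in *Cnmd*-rich cells and differed by 0.41 ± 0.26, and *Cox4i2* was at 1.10 ± 0.26 and differed by -0.22 ± 0.34 (adjusted p = 0.857). *Cst3* was at 0.18 ± 0.23 and *Enpp2* at -0.03 ± 0.45 in *Cnmd*-rich cells, with differences of 0.59 ± 0.29 and 1.02 ± 0.48 (adjusted p = 0.458 for both).

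**Figure D5:**
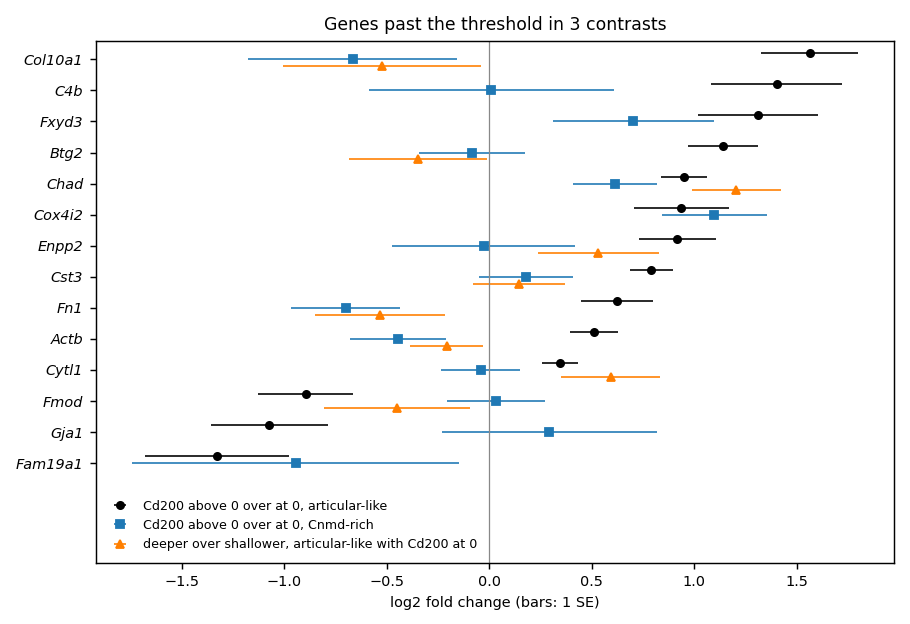
Log2 fold changes (bars, 1 SE) of the 14 genes for Cd200 in articular-like cells, for Cd200 in Cnmd-rich cells, and for depth in articular-like cells with Cd200 at 0. Genes without the symbol for depth had too few UMIs in cells at 0. Of the 14 genes, 8 have opposite signs in articular-like and Cnmd-rich cells. Of these 8, Btg2, Enpp2, Cytl1, Fmod and Gja1 lie within 1 SE of 0 in Cnmd-rich cells. Col10a1, Fn1 and Actb lie more than 1 SE below 0 there. The 14 genes were chosen in articular-like cells, and whether opposite signs are more frequent among them than among other genes was not tested. None of the 14 differences between the cell types passed by edgeR. Chad and Cst3 are to the right of 0 in all 3 contrasts.

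The genes used end within the table's alphabetical order at *Gm5763*, and all later genes, among them *Grem1*, *Prg4*, *Sox9* and the mitochondrial genes, were not analysed here. In summed single cells, more cells with a transcript and more RNA per cell cannot be told apart.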

How the data were processed

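Single TdTomato-positive cells of 8 *Grem1-TdT* plates were sequenced with UMIs. The deposited table holds counts, which the authors made as UMIs per gene and well. The submitters' processing notes name UMI-tools, STAR, featureCounts, SAMtools, Seurat and mm10, without versions, and whether counting used strand is not given in the sources used here. Of 29184 genes listed, 1 incomplete entry was left out, and later genes in alphabetical order were not analysed here. The members and gene lists were chosen with earlier results of these data known.

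Cells were selected on at least 350 genes with a UMI, S of at least 2.5% and S above *Cnmd*. *Cd200* was removed, and *Clu*, *Cilp*, *1500015O10Rik* and *Cnmd* were kept out of the tests. UMIs were summed per plate and group (at least 10 cells, or 5 for the interaction and the smaller sets of cells). They were filtered with filterByExpr, scaled by TMM and tested with edgeR 4.0.16 in R 4.3.3 (quasi-likelihood test, plate as block, Benjamini-Hochberg adjustment, threshold 0.05). DESeq2 1.42.0 was an alternative. Standard errors were derived from the fold change and its F statistic and are approximate. CPM were computed without *Cd200*, with TMM unless stated. Plates are the replicates. With the plate as block, p-values measure how evenly the difference within plates recurs from plate to plate. Which mice a plate holds is not given, so spread between mice was not measured. Both groups of a plate come from the same plate. Their deviations correlated at a mean r of 0.311 over 341 genes (0.136 to 0.500), against -0.0472 between plates.

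Named genes were the 12 with the largest change each way among those past the threshold with at least 50 CPM and 1 direction on 7 of 8 plates, the 10 of smallest p where fewer than 10 passed, and members of the lists. Doublets and carry-over between wells were not removed. The test was checked on simulated data for the *Cd200* contrast over 333 genes. There edgeR recovered 83.3% of genes changed 2-fold and 100% of those changed 4-fold, with 1.54% false calls. DESeq2 recovered 75% and 100%, with 3.1% false calls. For the interaction, edgeR recovered 96.5% of genes changed 8-fold over 620 genes, with 5.22% false calls. Whether these rates hold for the measured counts was not tested. Plate sums held 8584 to 45170 UMIs. Exact binomial (Clopper-Pearson) 95% intervals cover counting error only. Alternatives were other tools, scalings, filters, cell sets, thinning, depth matching, no block and each plate left out.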

Additional observations from a re-analysis of the deposited data

Results flagged for a closer look

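In 32 groups of 8 plates (each of the called genes and both measures per cell, with *Cd200* above 0 and at 0), the highest or lowest plate was tested for a gap to the nearest other plate beyond the 95% critical value of Dixon's test for 8 values. Such a gap was found in 2 groups, and chance gives it in about 1 of 20 groups. For *Fam19a1* in cells at 0, plate 7 had 2010 CPM, and its gap was 0.725 of the range. For *Gja1* in cells at 0, plate 7 had 971 CPM, and its gap was 0.559 of the range. Both genes were lower with *Cd200*. Without plate 7 *Gja1* had a log2 fold change of -1.08 and did not pass, and *Fam19a1* had too few UMIs to be tested.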

How the results depend on the processing

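No alternative turned the sign of any of the 14 genes. Over all alternatives, 227 of their log2 fold changes stayed on the same side of the threshold and 103 no longer passed. The count of 14 genes became 7 with DESeq2, 6 with no replicate block, 7 in thinned cells, 4 when *Cd200* was called again in thinned cells, 8 at S of at least 5%, 6 with at least 500 genes per cell, 6 without the 20 most abundant genes, 3 in the deeper cells, 1 at or below and 7 above the median *Col10a1* share, and 5 in matched cells. It was 5 on plates 1, 2 and 4 and 2 on plates 5 to 9 (*Chad* and *Cst3*), sets with fewer plates. Not all of the 14 genes were tested in each set. Without the 20 most abundant genes, 7 of them were tested and 6 passed. At S of at least 5%, 9 were tested and 5 passed, and at or below the median *Col10a1* share 8 were tested and 1 passed. Leaving out each plate gave 9 to 15 genes. With library sizes over all genes and without TMM, 2 choices changed together, 9 genes were higher and 5 lower, 12 of the 14 passed, and the median of all genes moved by -0.11. With library sizes over all genes and TMM kept, 11 were higher and 3 lower. Matching on depth, sums of at least 5 cells and library sizes over all genes were chosen after seeing the data.

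The interaction count of 0 became 4 with DESeq2, 4 with library sizes over all genes, 8 with no filter on low counts, 3 in thinned cells, and 0 to 4 with a plate left out (4 without plate 6, 3 without plate 7). The count of 1 gene for depth became 2 with DESeq2, 12 with no filter, 0 with no replicate block, and 1 to 2 with a plate left out (2 without plate 1 or plate 6). The difference in UMIs per cell was 304.0 on plates 1, 2 and 4 and 354.6 on plates 5 to 9, and that in genes per cell -21.8 and -28.9. These sets cannot reach 0.05 (smallest exact p 0.25 and 0.0625). With a plate left out they ran from 306.4 to 362.9 and from -28.0 to -24.3. The cause of these changes was not tested. Genes with few UMIs in the cells at 0, such as *Fxyd3* (31) and *C4b* (38), could not be tested in most of the smaller sets.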
